A study of Mus musculus with 6 samples.

Results

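OCT4 and NANOG binding was compared in Esrrb-GFP high embryonic stem cells (ESCs), by asking for each bound interval whether it was listed for both factors or for 1 of them alone. The Esrrb-GFP high lists of OCT4 and NANOG together held 18199 distinct regions, of 23767 in all 6 ChIP-Seq lists of the series. An interval with the same chromosome, start and end in both lists was called co-bound, which gave 3675 regions. The remaining intervals were 8774 OCT4-alone regions and 5750 NANOG-alone regions. Expressed as shares of the 18199 regions, these were 20.2% (95% Wilson interval 19.6 to 20.8), 48.2% (47.5 to 48.9) and 31.6% (30.9 to 32.3).

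The cells were the Esrrb-2a-GFPd-IBIH line, E14Tg2a mouse ESCs in which a destabilised GFP is expressed from both alleles of the *Esrrb* gene through a 2a linker, grown in serum and LIF. The Esrrb-GFP high fraction was the brightest 10% of the sorted cells, the Esrrb-GFP medium fraction was a slice of 15% lying directly over the negative gate, and the Esrrb-GFP negative fraction had no GFP signal. The OCT4 ChIP used a goat polyclonal antibody and the NANOG ChIP a rabbit polyclonal antibody, and each factor and fraction is represented by 1 library of 3 pooled ChIPs. No spread between replicates can therefore be given, no p-value was computed, and differences in antibody or in read depth cannot be told apart from differences between the factors. The lists hold positions without any signal, so the read depth is unknown. All intervals below are 95% intervals that cover counting error over regions of these libraries, and regions are not replicates.

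OCT4, encoded by *Pou5f1*, is a POU-family protein that binds the octamer and, beside SOX2, a composite of a SOX and an octamer sequence. NANOG is a homeodomain protein whose preferred sequences contain a TAAT core, and it has been linked to stable self-renewal. ESRRB is an orphan nuclear receptor that binds extended estrogen receptor half-sites, and its gene is a target of NANOG and a marker of naive pluripotency.

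Examples of the underlying sequence, in the mm9 assembly (plus strand, the region centre with 100 bp on either side unless stated otherwise), are given first, because the groups differed in the short sequences they hold. Capitals mark matches to the sequences searched. These were the octamer ATGCAAAT, the Oct-Sox composite with up to 2 mismatches (CATTGT, any base, then the octamer), SOX (CATTGTT), NANOG (CCATTA), ESRRB (TCAAGGTCA with up to 1 mismatch) and KLF (GGGTGTGG or GGGCGTGG), each on both strands. A match is a description of the letters and not of a site in use. The octamer is part of a perfect Oct-Sox composite, so the matches of these 2 searches can overlap, as can those of SOX and Oct-Sox. The Mycn, Dppa3, Dppa4 and Nr0b1 windows come from the fixed choice rule, and the others were chosen after their values were seen.

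Co-bound regions are represented by a window downstream of *Sox2* at chr3:34552891-34553091, inside an intron of another annotated gene, which holds a KLF match and an Oct-Sox match with 1 mismatch. Its KLF match lies outside the listed region. The other examples are a window upstream of *Dppa3*, a germline and naive pluripotency gene, at chr6:122574491-122574691, with an octamer on the minus strand, and a window upstream of *Mycn*, a MYC-family gene, at chr12:12950151-12950351, with a NANOG match.
Sox2 co-bound: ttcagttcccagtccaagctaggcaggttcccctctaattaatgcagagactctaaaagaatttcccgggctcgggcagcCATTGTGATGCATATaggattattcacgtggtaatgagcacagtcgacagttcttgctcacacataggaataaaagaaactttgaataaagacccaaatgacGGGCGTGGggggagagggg
Dppa3 co-bound: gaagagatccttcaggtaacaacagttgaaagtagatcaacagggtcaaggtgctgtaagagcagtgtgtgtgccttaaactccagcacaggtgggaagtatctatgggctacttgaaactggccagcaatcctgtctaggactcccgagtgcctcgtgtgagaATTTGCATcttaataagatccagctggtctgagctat
Mycn co-bound: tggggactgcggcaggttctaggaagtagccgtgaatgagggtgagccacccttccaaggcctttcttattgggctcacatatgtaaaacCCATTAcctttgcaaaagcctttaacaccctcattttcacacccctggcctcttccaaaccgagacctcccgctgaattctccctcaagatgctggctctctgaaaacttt

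OCT4-alone regions are represented by windows with a perfect octamer near *Klf2* and *Klf4*, which encode zinc-finger factors of the naive network. They were chosen for the octamer, which most OCT4-alone regions lack, and the 3 OCT4-alone windows that the fixed rule gave, near *Dppa5a* and *Nr5a2*, held KLF, SOX or ESRRB matches and no octamer. The *Klf2* window lies upstream of the gene at chr8:74835181-74835381, and the *Klf4* window downstream at chr4:55532591-55532791. Both are intergenic, and the second also holds a NANOG match on the minus strand. The *Klf2* octamer begins before the listed region and ends in it, and a NANOG-alone region lies beside that region.
Klf2 OCT4 alone: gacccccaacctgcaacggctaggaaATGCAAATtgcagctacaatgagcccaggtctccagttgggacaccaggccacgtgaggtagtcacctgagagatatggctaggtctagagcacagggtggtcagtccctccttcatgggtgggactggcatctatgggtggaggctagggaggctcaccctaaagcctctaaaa
Klf4 OCT4 alone: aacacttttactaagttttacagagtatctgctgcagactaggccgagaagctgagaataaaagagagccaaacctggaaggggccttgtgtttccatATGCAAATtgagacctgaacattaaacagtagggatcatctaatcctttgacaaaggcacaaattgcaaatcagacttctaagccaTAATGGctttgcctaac

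NANOG-alone regions are represented by intergenic windows upstream of *Nr0b1*, which encodes the nuclear receptor DAX1, at chrX:83432651-83432851, and upstream of *Dppa4* at chr16:48282931-48283131. The first holds a NANOG and an ESRRB match and the second a SOX match, and neither holds an octamer. All of these matches lie in the window but outside the listed region. The remaining NANOG-alone window that the fixed rule gave, in an intron of *Nr5a2*, held a KLF match.
Nr0b1 NANOG alone: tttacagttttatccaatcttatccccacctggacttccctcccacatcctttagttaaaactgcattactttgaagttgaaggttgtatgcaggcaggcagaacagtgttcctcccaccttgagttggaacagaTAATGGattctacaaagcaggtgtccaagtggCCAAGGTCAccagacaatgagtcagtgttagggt
Dppa4 NANOG alone: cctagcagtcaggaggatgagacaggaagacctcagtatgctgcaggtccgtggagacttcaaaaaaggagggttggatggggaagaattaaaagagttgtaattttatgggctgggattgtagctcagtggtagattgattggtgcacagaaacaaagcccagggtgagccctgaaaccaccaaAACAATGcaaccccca

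Motif content differed between the groups, although most regions of each group held none of the 6 sequences. An octamer lay within 100 bp of the centre of 935 of 8774 OCT4-alone regions, 10.7% (10.0 to 11.3), of 296 of 3675 co-bound regions, 8.05% (7.22 to 8.98), and of 157 of 5750 NANOG-alone regions, 2.73% (2.34 to 3.18). Over all 23767 regions of the series the octamer was found in 7.88%, Oct-Sox in 5.20%, SOX in 6.29%, NANOG in 9.55%, ESRRB in 11.2% and KLF in 4.19%. In windows 10 kb downstream of the same regions the octamer was found in 1.28%, 1.25% and 1.53%. The Oct-Sox composite followed the same order, with 690 OCT4-alone regions, 7.86% (7.32 to 8.45), 222 co-bound regions, 6.04% (5.32 to 6.86), and 67 NANOG-alone regions, 1.17% (0.919 to 1.48), against 0.261% to 0.365% downstream. The odds of an octamer were 4.25 times (3.58 to 5.05) and those of an Oct-Sox match 7.24 times (5.62 to 9.32) as high in OCT4-alone as in NANOG-alone regions. Co-bound regions held fewer octamer and Oct-Sox matches than OCT4-alone regions, with odds ratios of 0.734 (0.641 to 0.842) and 0.753 (0.644 to 0.881). With 1 mismatch allowed in the octamer, that odds ratio was 0.999 (0.925 to 1.08).

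The matches to NANOG, SOX and ESRRB ran the other way. CCATTA was found in 834 NANOG-alone regions, 14.5% (13.6 to 15.4), in 420 co-bound regions, 11.4% (10.4 to 12.5), and in 639 OCT4-alone regions, 7.28% (6.76 to 7.85). The downstream windows had it in 7.81%, 8.60% and 8.40%, and the share in OCT4-alone regions was thus below that of their own downstream windows. Downstream windows were not matched for base composition, whose part in this difference was not tested. The SOX sequence was in 9.62% (8.88 to 10.4) of NANOG-alone, 8.24% (7.40 to 9.18) of co-bound and 4.78% (4.35 to 5.24) of OCT4-alone regions, against 3.48% to 3.67% downstream. Leaving out windows that also held an octamer or Oct-Sox match, SOX remained in 9.25% (8.53 to 10.0), 6.83% (6.06 to 7.69) and 3.45% (3.09 to 3.86). ESRRB matches were found in 941 NANOG-alone regions, 16.4% (15.4 to 17.3), and in 573 co-bound regions, 15.6% (14.5 to 16.8), and co-bound minus NANOG alone was -0.773 percentage points (-2.27 to 0.754), an odds ratio of 0.944 (0.843 to 1.06). Width changed this call, since the odds ratio was 0.830 (0.729 to 0.946) within width classes and 0.806 (0.700 to 0.929) among the wider regions of each list. OCT4-alone regions had an ESRRB match in 761 cases, 8.67% (8.10 to 9.28), and their downstream windows in 7.10%.

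Composition differed between the groups as well. The median GC content of the windows was 48.8% in OCT4-alone, 46.8% in co-bound and 46.3% in NANOG-alone regions. Stratified by quartile of GC content, the OCT4-alone to NANOG-alone odds ratio was 4.86 (4.06 to 5.81) for the octamer, 8.86 (6.82 to 11.5) for Oct-Sox, 0.536 (0.469 to 0.613) for SOX, 0.488 (0.436 to 0.546) for NANOG and 0.464 (0.418 to 0.514) for ESRRB. KLF matches were in 4.26% (3.86 to 4.71) of OCT4-alone, 3.59% (3.04 to 4.24) of co-bound and 4.54% (4.03 to 5.11) of NANOG-alone regions, against 1.90% to 2.38% downstream. The KLF odds ratio of OCT4-alone to NANOG-alone regions was 0.936 (0.797 to 1.10) and gave no fixed direction, since it was 0.790 (0.670 to 0.932) within GC quartiles and 1.26 (1.18 to 1.35) with 1 mismatch allowed. Repeats were not examined, so KLF and ESRRB matches that may lie in them were not set apart.

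**Figure D1:**
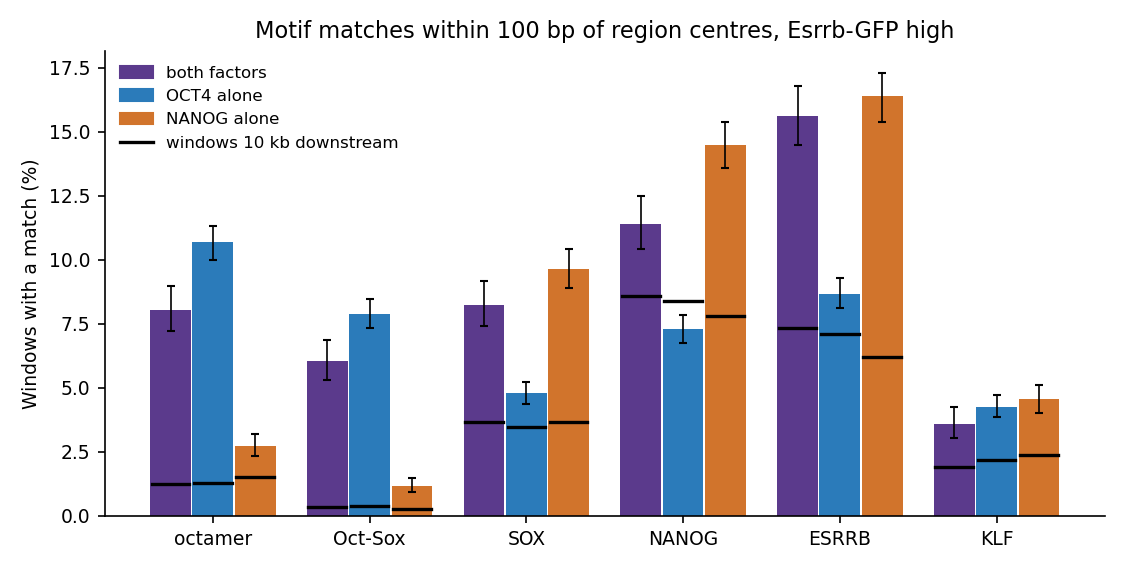
Share of regions (y axis, percent) with a match to each of 6 sequences (x axis) within 100 bp of the centre, for co-bound, OCT4-alone and NANOG-alone regions, with 95% Wilson intervals as error bars and the share in windows 10 kb downstream as black lines. Octamer and Oct-Sox bars are highest in OCT4-alone regions (10.7% and 7.86%), and the SOX, NANOG and ESRRB bars are highest in NANOG-alone regions (9.62%, 14.5% and 16.4%).

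The octamer and Oct-Sox matches lay nearest to the centre in OCT4-alone windows. Of 696 Oct-Sox matches in OCT4-alone windows, 434 lay within 25 bp of the centre, 62.4% (58.7 to 65.9), compared with 110 of 228 in co-bound windows, 48.2% (41.8 to 54.7), and 25 of 67 in NANOG-alone windows, 37.3% (26.7 to 49.3). For the octamer these shares were 46.9% (471 of 1005), 36.4% (114 of 313) and 29.8% (48 of 161). SOX matches were within 25 bp of the centre in 33.4% to 34.7% of cases in all 3 groups. NANOG matches were this close in 33.0% of cases in NANOG-alone, 27.8% in co-bound and 30.2% in OCT4-alone windows. For ESRRB matches the shares were 22.4%, 21.7% and 29.1%, with median distances of 50 bp, 53.0 bp and 46.0 bp. The values that even placement over the window would give were not computed, so no outer position of ESRRB matches is shown. Co-bound regions were also wider, so their centres are less sharply placed, and the part of width in this difference was not tested.

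No match to any of the 6 sequences was found in 65.2% (64.2 to 66.2) of OCT4-alone, 57.7% (56.1 to 59.3) of co-bound and 58.7% (57.4 to 59.9) of NANOG-alone regions. A NANOG and an octamer or Oct-Sox match occurred together in 1.74% (1.37 to 2.22) of co-bound, 1.41% (1.19 to 1.68) of OCT4-alone and 0.574% (0.409 to 0.805) of NANOG-alone windows. Co-bound minus OCT4 alone was 0.328 points (-0.134 to 0.855), an interval that includes 0.

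Width differed between the groups. The median was 180 bp (quartiles 120 and 260 bp) for co-bound regions, 80 bp (60 and 140 bp) for OCT4-alone regions and 60 bp (60 and 120 bp) for NANOG-alone regions. Regions of 40 to 60 bp made up 45.1% (44.0 to 46.1) of OCT4-alone and 50.1% (48.8 to 51.4) of NANOG-alone regions but 4.41% (3.79 to 5.12) of co-bound regions. The width is that of the peaks joined over all datasets, so it can depend on the number of lists in which a region was called. Among co-bound regions present in no further list, the median was 160 bp (n = 249). It was 60 bp for OCT4-alone and NANOG-alone regions of that kind (n = 1058 and 2974).

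Location relative to genes set OCT4-alone regions apart. The centre lay within 1 kb of an annotated transcription start site for 896 OCT4-alone regions, 10.2% (9.60 to 10.9), 212 co-bound regions, 5.77% (5.06 to 6.57), and 286 NANOG-alone regions, 4.97% (4.44 to 5.57). OCT4-alone exceeded NANOG-alone regions by 5.24 percentage points (4.38 to 6.08), and co-bound minus NANOG alone was 0.795 points (-0.129 to 1.76), which includes 0. That difference was 0.822 points (0.00711 to 1.68) with protein-coding transcripts and 1.34 points (0.12 to 2.52) among the wider regions, both past 0. Median distances to a start site were 14732 bp for OCT4-alone, 19628 bp for co-bound and 20134 bp for NANOG-alone regions. Beyond 50 kb from any start site lay 21.9%, 26.2% and 28.4% of the regions, and OCT4 alone minus NANOG alone was -6.56 points (-8.01 to -5.11). The 896 OCT4-alone regions near start sites had a median GC content of 50.7%, and 592 of them were also listed for OCT4 in Esrrb-GFP negative cells, 66.1% (62.9 to 69.1), compared with 58.6% (57.6 to 59.7) of those farther away.

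**Figure D2:**
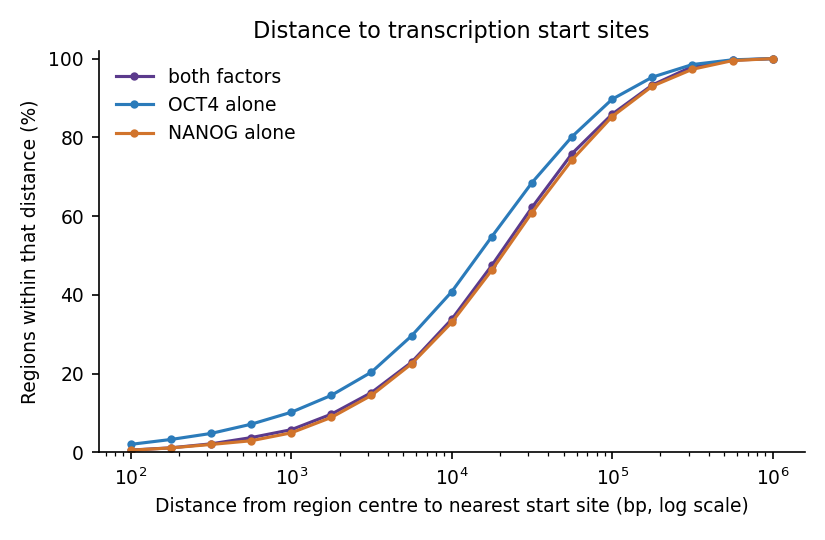
Cumulative share of regions (y axis, percent) against the distance of the region centre from the nearest transcription start site (x axis, bp, log scale) for the 3 groups. The OCT4-alone curve runs above the others, with 10.2% of regions within 1000 bp against 5.77% of co-bound and 4.97% of NANOG-alone regions, and the other curves lie close together.

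Most regions of every group were intronic or intergenic. Introns held 42.3% (41.0 to 43.6) of NANOG-alone, 39.4% (38.4 to 40.5) of OCT4-alone and 39.1% (37.5 to 40.7) of co-bound regions. Exons held 4.22% (3.82 to 4.66) of OCT4-alone, 2.68% (2.29 to 3.13) of NANOG-alone and 2.37% (1.92 to 2.91) of co-bound regions. Intergenic regions were 58.6% (57.0 to 60.1) of the co-bound, 56.3% (55.3 to 57.4) of the OCT4-alone and 55.0% (53.7 to 56.3) of the NANOG-alone group.

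Chromosome X differed from the autosomes. NANOG-alone regions on X numbered 208, 3.62% (3.16 to 4.13), OCT4-alone regions 158, 1.80% (1.54 to 2.10), and co-bound regions 88, 2.39% (1.95 to 2.94). NANOG alone minus OCT4 alone was 1.82 percentage points (1.27 to 2.39). There were 1.32 NANOG-alone regions for each OCT4-alone region on X, whereas the autosomes ranged from 0.521 on chromosome 7 to 0.961 on chromosome 14. Co-bound regions made up 19.4% of the regions on X and between 17.8% and 21.5% on the autosomes.

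The factors' regions were then examined for spacing, measured as the gap between region edges. Distinct intervals never overlapped, and the smallest gap was 20 bp. An OCT4-alone region lay a median of 54.2 kb (interquartile range 12.8 to 147.5 kb) from the nearest NANOG region of either kind and 29.7 kb (5.44 to 94.9 kb) from the nearest other OCT4 region. A NANOG-alone region lay 41.3 kb (8.08 to 129.0 kb) from the nearest OCT4 region and 51.1 kb (10.1 to 151.1 kb) from the nearest other NANOG region. The lists differ in size, which by itself changes these medians. Within 1 kb, 798 OCT4-alone regions had a NANOG region, 9.10% (8.51 to 9.71), and 690 NANOG-alone regions had an OCT4 region, 12.0% (11.2 to 12.9). These regions are alone by the exact interval although the other factor was listed close by.

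Each group had more neighbours of its own kind than its share of all regions, by 2.15 to 3.83 percentage points. The nearest neighbour was of the same group for 51.4% (50.4 to 52.5) of OCT4-alone regions, 35.4% (34.2 to 36.7) of NANOG-alone regions and 22.3% of co-bound regions, where the groups were 48.2%, 31.6% and 20.2% of all regions. Regions can be each other's nearest neighbour and are then not independent, so the intervals in this paragraph may be too narrow. The excess of 3.83 points for NANOG-alone regions fell to 0.379 points (-1.36 to 2.20) when each list was limited to regions of its median width or more. OCT4-alone regions had a NANOG-alone region as nearest neighbour in 28.8% (27.9 to 29.8) of cases, below the 31.6% share of that group.

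Some OCT4-alone and NANOG-alone regions lay side by side. Of 744 adjacent pairs with a gap of at most 100 bp, 250 joined an OCT4-alone to a NANOG-alone region, 33.6% (30.3 to 37.1), where such pairs were 28.6% (28.0 to 29.3) of the 18178 adjacent pairs at any gap. Pairs of OCT4-alone regions numbered 226, 30.4% (27.2 to 33.8) against 24.5% at any gap, and pairs of NANOG-alone regions 101, 13.6% (11.3 to 16.2) against 10.9%. Short gaps were thus not particular to the mixed pairs. Pairs of co-bound regions this close numbered 10, 1.34% (0.732 to 2.46) against 4.36%. From the first to the second 100 bp the pairs fell from 250 to 51 for the mixed kind, from 226 to 47 for OCT4 alone and from 101 to 21 for NANOG alone. The median gap of the 250 mixed pairs was 40 bp.

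**Figure D3:**
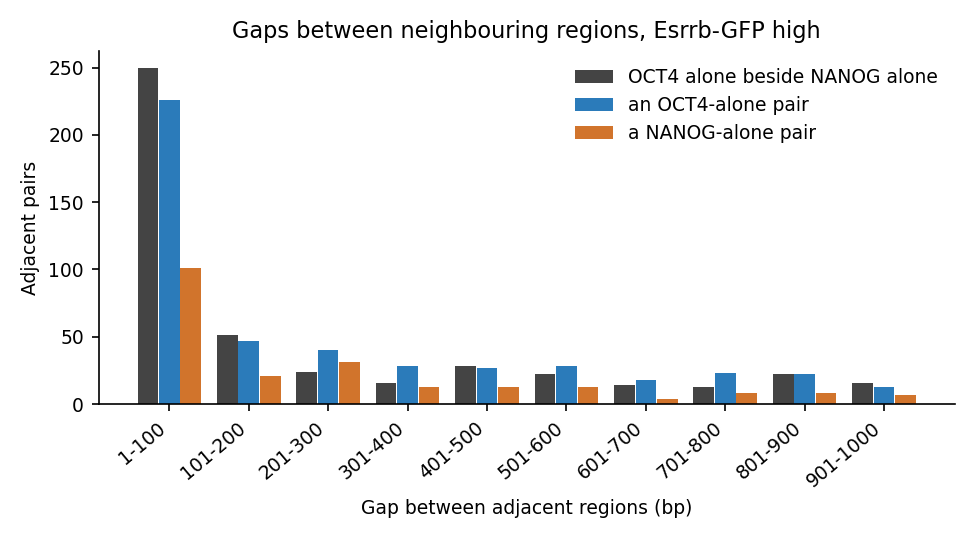
Number of adjacent pairs of regions (y axis) by the gap between their edges in 100-bp steps (x axis, bp), for an OCT4-alone region beside a NANOG-alone region and for pairs of the same group. The first step holds 250 mixed pairs, 226 OCT4-alone pairs and 101 NANOG-alone pairs, and these fall to 51, 47 and 21 in the second step.

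Pairs of this kind occurred at *Klf2* and at *Nr5a2*, which encodes the nuclear receptor LRH-1. At chr8:74835092-74835351, upstream of *Klf2*, a NANOG-alone region of 100 bp was separated by 20 bp from an OCT4-alone region of 140 bp. A perfect octamer at bases 116 to 123 of this stretch began in the gap and ended in the OCT4-alone region. The region edge is not resolved to single bases. At chr1:138850312-138850451, in an intron of *Nr5a2*, a NANOG-alone region of 40 bp was followed after 20 bp by an OCT4-alone region of 80 bp, with a KLF match in the gap. In the following stretches capitals mark the regions, NANOG alone first and OCT4 alone second, and lower case marks the gap.
Klf2 pair: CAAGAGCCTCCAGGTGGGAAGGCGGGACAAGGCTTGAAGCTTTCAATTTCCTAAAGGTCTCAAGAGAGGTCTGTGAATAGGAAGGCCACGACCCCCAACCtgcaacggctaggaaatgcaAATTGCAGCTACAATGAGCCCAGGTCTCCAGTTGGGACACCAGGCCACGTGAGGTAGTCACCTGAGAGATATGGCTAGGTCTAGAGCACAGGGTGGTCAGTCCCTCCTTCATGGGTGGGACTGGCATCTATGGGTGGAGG
Nr5a2 pair: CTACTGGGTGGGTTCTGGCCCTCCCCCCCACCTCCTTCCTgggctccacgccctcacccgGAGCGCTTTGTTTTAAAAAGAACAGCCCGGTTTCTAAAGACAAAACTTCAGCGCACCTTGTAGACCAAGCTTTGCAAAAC

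The sequences around both members of these 250 pairs were also searched. An octamer was found near the OCT4-alone member in 20 pairs (interval 5.24% to 12.0%), compared with 10.7% of all OCT4-alone regions, and near the NANOG-alone member in 13 pairs, 5.20% (3.06 to 8.69), compared with 2.73% of all NANOG-alone regions. A NANOG match was found near 14 OCT4-alone members, 5.60% (3.36 to 9.18), and 27 NANOG-alone members, 10.8% (7.53 to 15.3), compared with 7.28% and 14.5% of all regions of these groups. The windows of such pairs overlap, so matches can be shared. In the other fractions, 18 of the 250 NANOG-alone members, 7.20% (4.60 to 11.1), were listed for OCT4 in Esrrb-GFP medium or negative cells, compared with 7.91% (7.24 to 8.64) of all NANOG-alone regions. When regions no more than 1 kb apart were chained, 1610 chains held at least 2 regions and the largest held 7. Of these, 1037 contained both factors, and 410 did so through OCT4-alone and NANOG-alone regions with no co-bound region. Chains of OCT4-alone regions only numbered 387, and those of NANOG-alone regions only 186. Among all adjacent pairs at any gap, 28.6% joined an OCT4-alone to a NANOG-alone region, 24.5% were OCT4-alone pairs and 10.9% NANOG-alone pairs. Whether chains held both factors more often than such shares imply was not tested.

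The same intervals were followed into the other sorted fractions. Of all 23767 regions of the series, OCT4 was listed at 14464 in Esrrb-GFP medium and at 10369 in Esrrb-GFP negative cells. Co-bound regions were listed for OCT4 in Esrrb-GFP medium cells in 84.0% (82.8 to 85.2) of cases and OCT4-alone regions in 76.4% (75.5 to 77.3). In Esrrb-GFP negative cells the order was inverse, with 44.2% (42.6 to 45.8) of co-bound and 59.4% (58.4 to 60.4) of OCT4-alone regions listed for OCT4, a difference of -15.2 points (-17.1 to -13.3). The medium difference of 7.62 points (6.12 to 9.08) depended on width. Within width classes its odds ratio was 0.996 (0.887 to 1.12), compared with 1.62 (1.47 to 1.80) without them, whereas the odds ratio for the negative fraction was 0.470 (0.430 to 0.513) within classes.

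NANOG was retained in Esrrb-GFP medium cells at 1993 co-bound regions, 54.2% (52.6 to 55.8), and at 2507 NANOG-alone regions, 43.6% (42.3 to 44.9), a difference of 10.6 points (8.57 to 12.7). Within width classes the odds ratio was 1.29 (1.17 to 1.43), compared with 1.53 (1.41 to 1.67) without them. In Esrrb-GFP negative cells NANOG was listed at 2.07% (1.66 to 2.58) of co-bound and 2.80% (2.40 to 3.26) of NANOG-alone regions, an odds ratio of 0.733 (0.556 to 0.966) that turned to 1.11 (0.805 to 1.54) within width classes. Few regions listed for 1 factor were listed for the other in another fraction. OCT4 was listed in medium cells at 425 NANOG-alone regions, 7.39% (6.74 to 8.10), and NANOG at 55 OCT4-alone regions, 0.627% (0.482 to 0.815). The authors counted a peak as lost for a factor below 50% of its maximum signal. If the lists follow that rule, listing a factor elsewhere but not in high cells required a high-cell signal below 50% of its maximum. Low shares are therefore partly set by the rule and do not show that a region keeps to 1 factor. These shares also depend on the number of regions in each list. Of the 23767 regions of the series, the NANOG lists held 9425 in high, 4729 in medium and 286 in negative cells. The OCT4 lists held 12449, 14464 and 10369 in the same order.

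**Figure D4:**
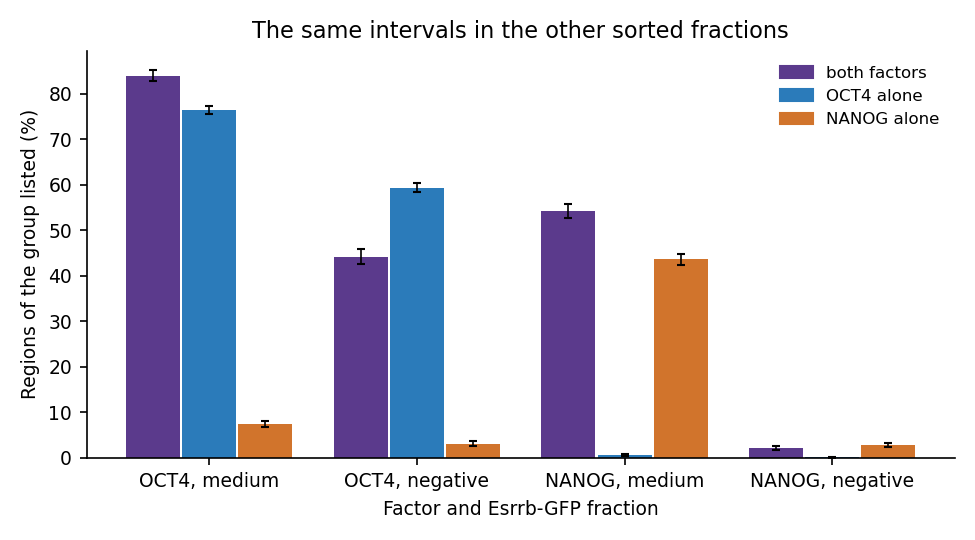
Share of the co-bound, OCT4-alone and NANOG-alone regions of Esrrb-GFP high cells (y axis, percent) that were listed for OCT4 or NANOG in Esrrb-GFP medium and negative cells (x axis), with 95% Wilson intervals. OCT4 remained at more co-bound than OCT4-alone regions in medium cells (84.0% and 76.4%) and at fewer in negative cells (44.2% and 59.4%).

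Genes were linked to regions within 20 kb of the gene body. Of 22380 protein-coding genes, 2486 had a co-bound region (11.1%), 5834 an OCT4-alone region (26.1%) and 3703 a NANOG-alone region (16.5%). Regions of all 3 groups lay near 599 genes (2.68%), and any region near 8723 genes (39.0%). OCT4-alone regions were the only group near 3501 genes, NANOG-alone regions near 1667 and co-bound regions near 854. OCT4-alone and NANOG-alone regions without a co-bound region lay near 1069 genes. Gene length moved with these counts, since the median length was 104.5 kb for genes with all 3 groups, 28.6 kb for those with an OCT4-alone region, 39.2 kb with a co-bound region, 40.2 kb with a NANOG-alone region and 10.6 kb for genes with none. The part of length in the counts was not tested. No protein-coding gene lay within 20 kb of 37.2% of co-bound, 36.3% of NANOG-alone and 32.3% of OCT4-alone regions.

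The genes with most regions were long. *Etl4* (900.9 kb) had 7 co-bound, 9 OCT4-alone and 6 NANOG-alone regions, and was followed for co-bound regions by *Arhgap26*, *Auts2*, *Cdh13* and *Dlgap1* with 5 each. Most OCT4-alone regions were counted for *Gm20388* (21), *Fgfr2* (18) and *Accn1* (12), and most NANOG-alone regions for *Clybl*, *Fgfr2* and *Ptprg* (9 each), *Arhgap26* (8) and *Park2* (7). The annotated models of *Gm20388* and *Fgfr2* span 4435 kb and 3009 kb and run across many other genes, so that their regions need not belong to them. *Clybl*, a mitochondrial enzyme gene of 220.5 kb, had 9 NANOG-alone but 2 OCT4-alone and 1 co-bound region.

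The core factor genes had 11 regions, of which 5 were co-bound, 5 OCT4 alone and 1 NANOG alone. *Pou5f1* (chr17:35642982-35647721) had co-bound regions centred 1961 bp and 921 bp upstream of its start and an OCT4-alone region 1361 bp upstream, between them. Both co-bound regions remained listed for both factors in medium cells and for OCT4 in negative cells. *Sox2* (chr3:34548927-34551383) had co-bound regions 3626 bp upstream and 4064 bp and 18654 bp downstream of its start, and OCT4-alone regions 14434 bp and 18164 bp downstream. All 5 were listed for OCT4 in both other fractions, and NANOG remained at 3626 bp upstream and 18654 bp downstream in medium cells. The region at 4064 bp is the *Sox2* window printed above, where NANOG was not listed in medium cells.

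*Nanog* (chr6:122657507-122664651) had no co-bound region by exact interval. A NANOG-alone region of 420 bp was centred 4786 bp upstream of its start and an OCT4-alone region of 300 bp 4246 bp upstream, with 180 bp between their edges. A second OCT4-alone region, of 420 bp, was centred in an exon 114 bp downstream of the start, and the same interval was listed for NANOG in Esrrb-GFP negative cells. The upstream pair was also listed for OCT4 at both intervals in medium cells, and NANOG remained there at the NANOG-alone interval. The exact-interval groups do not show that the factors bind apart at this gene. In the paper's ChIP-PCR, NANOG had a graded profile at the *Nanog* enhancer. OCT4 binding was still detectable at that enhancer in Esrrb-GFP negative cells. Whether the upstream pair belongs to it was not examined.

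The naive pluripotency list was chosen with earlier results of these data known, so its counts are a description. Of 25 genes, 19 had a co-bound region (76.0%, all genes 11.1%), 16 an OCT4-alone region (64.0%, 26.1%) and 16 a NANOG-alone region (64.0%, 16.5%), and 9 had all 3. *Tcl1* had none. The 87 distinct regions near them were co-bound in 27 cases, OCT4 alone in 34 and NANOG alone in 26, which is 31.0% (22.3 to 41.4) co-bound compared with 20.2% of all regions. Neighbouring genes such as *Dppa3* and *Gdf3*, or *Dppa2* and *Dppa4*, share regions.

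*Esrrb* (chr12:87702067-87862578), the gene that carries the reporter, had 4 co-bound, 2 OCT4-alone and 3 NANOG-alone regions. The co-bound regions lay in introns between 109944 bp and 140724 bp from the start of the longest gene model, and all 4 were listed for both factors in medium cells but 1 for OCT4 in negative cells. An octamer was found near co-bound regions at 109944 bp and 117974 bp, near both OCT4-alone regions and near the NANOG-alone region at 143694 bp.

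*Ncoa3*, a nuclear receptor coactivator gene, had 1 co-bound, 3 OCT4-alone and 3 NANOG-alone regions. The following naive genes other than *Dppa5a*, *Mybl2* and *Gdf3* were chosen after their values were seen. *Nr5a2* had 5 OCT4-alone and 1 NANOG-alone regions and no co-bound region. *Dppa5a* had 6 OCT4-alone, 2 co-bound and 2 NANOG-alone regions, and *Mybl2* had 4, 1 and 1 in the same order. *Gdf3*, a TGF-beta family ligand, had 4 OCT4-alone, 1 co-bound and 2 NANOG-alone regions. *Klf4* and *Klf5* had 1 OCT4-alone region each, whereas *Klf2* had 3 co-bound regions besides its side-by-side pair. *Nr0b1* had 2 NANOG-alone regions and no other, neither of which was listed in another fraction. *Tcfcp2l1*, a CP2-family factor, had 2 co-bound and 2 NANOG-alone regions, and *Prdm14* and *Tdh* had 2 co-bound regions each and no other.

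**Figure D5:**
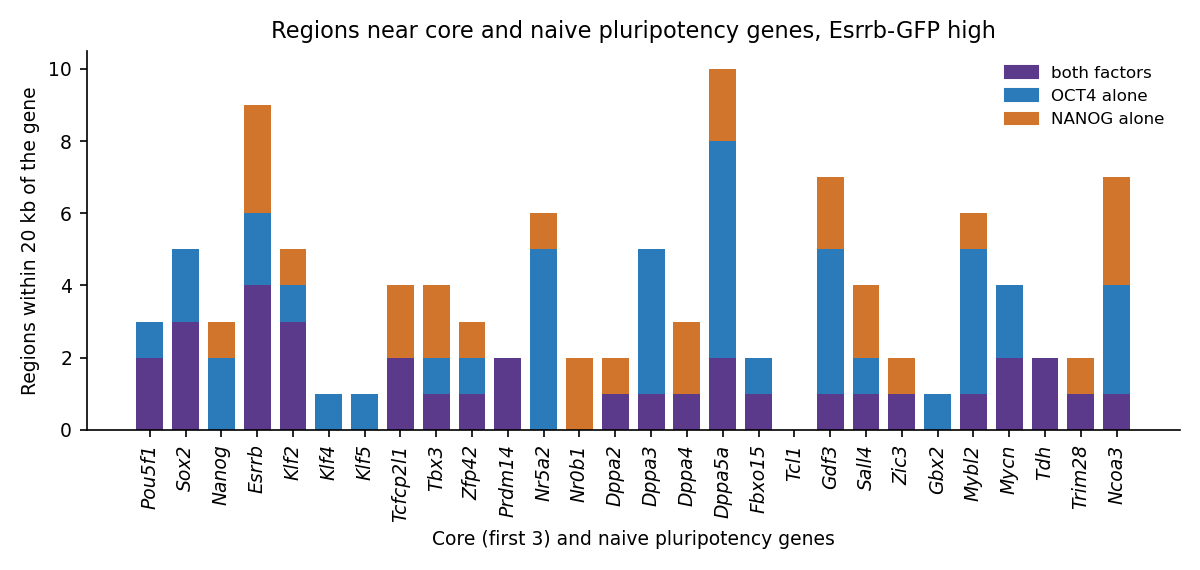
Number of regions within 20 kb (y axis) of each core and naive pluripotency gene (x axis), stacked by group. *Dppa5a* has 10 regions and *Esrrb* 9, *Tcl1* has none, and *Nr0b1* has NANOG-alone regions only.

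Formative and primed genes were counted next. This list and those below were also chosen with earlier results of these data known. Their comparison with all protein-coding genes was not matched for gene length. Of 15 genes, 8 had a co-bound (53.3%), 6 an OCT4-alone (40%) and 9 a NANOG-alone region (60%), where all protein-coding genes had 11.1%, 26.1% and 16.5%. *Lef1*, a Wnt effector, had 2, 3 and 1, and *Foxd3* 1, 1 and 3. *Lin28a*, an RNA-binding protein gene, had 1, 3 and 1, with an OCT4-alone region 285 bp upstream of its start. *Cdh2* (N-cadherin) had 3 NANOG-alone regions and no other, and *Dnmt3b*, a de novo DNA methyltransferase gene, had 2 co-bound regions and 1 NANOG-alone region.

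Signalling genes had regions of every group, and their shares are given in the order co-bound, OCT4 alone and NANOG alone, for which all protein-coding genes had 11.1%, 26.1% and 16.5%. For LIF and STAT3, 4, 6 and 4 of 12 genes had such a region (33.3%, 50% and 33.3%). *Socs3*, a feedback inhibitor, had 1, 1 and 2 regions, all upstream within 6560 bp of its start, and the receptor gene *Lifr* had 2 co-bound regions with a NANOG-alone region between them. *Lif* had 1 co-bound and 1 OCT4-alone region, *Ptpn11* 1 OCT4-alone and 1 NANOG-alone region, and *Il6st*, which encodes the co-receptor gp130, 1 co-bound region. For FGF and ERK, the numbers were 7, 11 and 9 of 16 genes (43.8%, 68.8% and 56.2%, against the same 11.1%, 26.1% and 16.5%), and 31 of the 74 distinct regions were those of the *Fgfr2* model. *Etv5*, an ETS-family target of ERK signalling, had 5 co-bound, 3 OCT4-alone and 4 NANOG-alone regions, with 11 of these 12 in its introns. *Spred2* had 1, 3 and 3, and *Spry4* 2, 3 and 2, both encoding inhibitors of the pathway. *Grb2*, an adaptor gene, had 2 OCT4-alone regions and 1 NANOG-alone region. For Nodal and BMP, 6, 5 and 8 of 16 genes had such regions (37.5%, 31.2% and 50%), of which the OCT4-alone share was near the 26.1% of all genes. *Tdgf1*, the Nodal co-receptor gene, had an OCT4-alone region 39 bp, a co-bound region 1279 bp and a NANOG-alone region 1989 bp upstream of its start, and 2 more regions farther upstream. *Lefty1*, an inhibitor of Nodal signalling, had 1, 2 and 1 regions, and the ligand gene *Nodal* had 1 of each group. *Skil* had 3 OCT4-alone regions and *Id1* 2 NANOG-alone regions, each with no other group. For Wnt, 3, 6 and 5 of 15 genes had such regions (20.0%, 40% and 33.3%, against 11.1%, 26.1% and 16.5%). *Tcf7l1*, a repressor of the pluripotency network, had 3 co-bound and 4 OCT4-alone regions and no NANOG-alone region, and *Ctnnb1* (beta-catenin) had 3 NANOG-alone regions and no other. *Axin2* had 1 OCT4-alone and 1 NANOG-alone region, and the receptor genes *Fzd5* and *Fzd7* had 1 co-bound region each, beside 1 OCT4-alone region at *Fzd5* and 1 NANOG-alone region at *Fzd7*.

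Among 20 chromatin regulators, 12 had a co-bound (60%), 11 an OCT4-alone (55.0%) and 9 a NANOG-alone region (45.0%), against 11.1%, 26.1% and 16.5% of all protein-coding genes. *Jarid2*, a Polycomb cofactor gene, had 3, 4 and 2. *Tet1* had 3 co-bound and 3 OCT4-alone regions and no NANOG-alone region, and *Tet2* had 2, 1 and 3. Both encode enzymes that oxidise 5-methylcytosine. *Mtf2*, which encodes a Polycomb-associated protein, had 1, 2 and 2. Of 19 matched lineage transcription factor genes, 5 had a co-bound (26.3%), 6 an OCT4-alone (31.6%) and 1 a NANOG-alone region (5.26%), compared with 11.1%, 26.1% and 16.5% of all protein-coding genes, and 11 had none. *Pax6*, a neural and eye factor gene, had 2 co-bound and 5 OCT4-alone regions, and *Gata3* had 4 OCT4-alone regions. *T* had 1 co-bound and 2 OCT4-alone regions and *Cdx2* 1 of each of these groups. The single NANOG-alone region was near *Tfap2c*. These counts are small and describe the listed genes, which were chosen with earlier results of these data known.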

How the data were processed

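OCT4 and NANOG ChIP-Seq peak lists of Esrrb-GFP high ESCs were compared, with the medium and negative lists used for status only. Samples were grouped by the antibody target and sorted fraction in their labels. The authors aligned reads (Bowtie, mm9, per the labels), called peaks with SISSRs in GeneProf, merged peaks overlapping in any dataset and treated a peak as lost below 50% of its maximum depth-normalised signal. Tool versions are not given in the sources used here. The deposited lists give positions only, with no signal. Starts were read as counted from 0 and are printed counted from 1. All regions lay within the chromosome lengths of the reference, NCBIM37 (mm9).

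Genes came from GENCODE for that assembly (37310 genes, 22380 protein-coding). Of 20 lineage genes, 19 were matched by symbol or synonym. Windows reaching 100 bp to either side of region centres were searched for motifs, with control windows 10 kb downstream. Shares have Wilson intervals, differences Newcombe intervals and odds ratios Woolf intervals, stratified ones by the Mantel-Haenszel method. Gene lists, naming rules and groups were chosen with earlier results of these data known. Named genes were listed genes with a region within 20 kb, up to 5 of each list in full (1 chromatin regulator is not reported here), and the 5 genes with most regions of each group. No sequence was taken from chromosome 18. Elsewhere the sequence rule took up to 3 windows of each group near core or naive genes, by fewest mismatches and then by distance. Of 9 such windows 4 are printed. Alternatives were joining regions, overlap, width, autosomes, distances, annotation, window size, mismatches, GC strata and a stricter definition of alone. Repeats were not examined. Functions were tested on simulated data, and 21 of 21 known answers were recovered. The scripts ran under Python 3.11.15 with scipy 1.17.1, numpy 2.4.6, matplotlib 3.10.9 and statsmodels 0.14.6.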

Additional observations from a re-analysis of the deposited data

How the results depend on the processing

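No paired analysis was possible because each factor and fraction has 1 library. Of 223 alternative values of a difference or odds ratio, 11 lost the call (an interval past 0 or 1), 7 gained it, 4 turned direction and the rest stayed on their side of it, 1 of them with a change of direction that was called neither way. Of 54 counts and shares, which have no threshold, 33 stayed within 1.5 times the count or inside the interval of the share. The 33 include the overlap counts and the co-bound counts under the stricter definition of alone, which could not change. Keeping the wider regions of each list (median width and over) left 3794 OCT4-alone and 2260 NANOG-alone regions, 3197 and 1718 genes near them, shares with the other factor within 1 kb of 4.80% and 6.99%, and an OCT4 difference in medium cells between co-bound and OCT4-alone regions of 0.446 points. The share with the other factor nearby was, for OCT4-alone regions, 6.83%, 16.9% and 22.7%, and for NANOG-alone regions 9.48%, 20.6% and 27.4% within 500 bp, 5 kb and 10 kb. Genes with a co-bound, OCT4-alone and NANOG-alone region numbered 1513, 3634 and 2326 within 5 kb and 4130, 9142 and 6017 within 50 kb. The KLF odds ratio of OCT4-alone to NANOG-alone regions was 0.790 within GC quartiles and 1.26 with 1 mismatch, and that of co-bound to NANOG-alone regions was 1.18 with 1 mismatch, against 0.784. Within width classes the co-bound odds ratio for OCT4 in medium cells was 0.996 and that for NANOG in negative cells 1.11, against 0.733. The causes were not tested. An overlap of at least 1 bp gave the same groups as exact intervals, as it must where distinct intervals never overlap. Width strata, distal regions, and regions with no neighbour of the other factor within 100 bp were added after seeing the data. Without signal or replicates, a region listed for 1 factor may fall just short of the call for the other.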
